A study of Drosophila melanogaster with 9 samples.

Results

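Long noncoding and antisense RNA genes were followed in an RNA-seq experiment on Drosophila melanogaster. The genes were those whose FlyBase symbol begins with lncRNA: or asRNA:, other than roX1 and roX2, and they were selected on their measured level, a mean of at least 1 CPM (the count of a gene after every library is scaled to the same total) over the 9 libraries. The selection gave 244 genes of the 17611 in the count table, 172 with the lncRNA: prefix and 72 with the asRNA: prefix. They were 10.01% of the 2438 rows with these prefixes. Of those rows, 1018 had no count in any library.

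The 9 libraries fell into 3 groups of 3, the yw controls and 1 group for each mutant, L(3)mbt and Lint-O. The yw flies were y1 w1118, the Lint-O mutant was a CRISPR knockout in that background, and the L(3)mbt mutant carried the temperature-sensitive allele l(3)mbt ts1. That allele came in a separate stock not marked y1 w1118, so stock background and allele cannot be told apart. In every group the labels name L3 larval brain, with eggs laid at 25 °C and larvae then kept at 29 °C for 5 to 6 days. The RNA was poly-A selected, and the study describes the triplicates as biological. L(3)mbt is a chromatin protein with malignant brain tumor repeats that keeps germline genes silent in somatic cells, and Lint-O is its partner in that repression.

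Long noncoding RNAs are transcripts without a recognized protein. Many are spliced and polyadenylated like mRNAs, and their genes often lie beside, inside or opposite a protein-coding gene. Antisense RNAs run along the other strand of another gene and can share exons with it. In flies the best known act in dosage compensation (the roX RNAs) or in the making of piRNAs, the small RNAs that silence transposons (the flamenco transcript, flam). For most CR-numbered genes no function is known to the annotation used here.

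Library totals ranged from 18681293 to 31519287 counts, so that 1 CPM stood for 18.7 to 31.5 reads. A first principal component took 77.1% of the variance. On the third (3.71%) yw replicate 3 lay apart from yw replicates 1 and 2, at 0.730 against -0.408 and -0.402. Lint-O itself was at a mean of 21.3 CPM in yw, 25.3 CPM in the L(3)mbt mutant and 3.68 CPM in the Lint-O mutant, and l(3)mbt at 135.0, 78.8 and 184.4 CPM. Markers of the labelled tissue were split. In all libraries 4 of 7 neuroblast markers (dpn, ase, grh and klu) and 4 of 7 neuron markers (brp, Syt1, nSyb and fne) were under 1 CPM, while insc, mira and wor (at least 2.38 CPM) and elav, Syx1A and cac (at least 41.7 CPM) were above it. Of 5 glial markers the regulator repo reached at most 0.138 CPM, and moody, loco and nrv2 were at 56.7 CPM or more. All 4 ovarian somatic markers, 1 of which (flam) is among the genes described here, were above 10 CPM in every library, and tj, a regulator of gonadal somatic cells, was at 402.8 to 623.2 CPM. Fat body and imaginal disc markers (4 of 4 each) and 3 of 4 haemocyte markers were under 1 CPM. The column headings of the table call the yw libraries EGFP, and the study also worked with cultured ovarian somatic cells. The groups are therefore called by their labels alone, and the tissue was not determined. Several markers moved with the groups. The neuron marker cac went from a mean of 49.4 CPM in yw to 140.1 and 140.5 CPM (log2 fold change 1.45 and 1.46). mira was called higher in both mutants (0.69 and 1.02) and loco lower in both (-0.30 and -0.22). In the L(3)mbt mutant alone Fas3 was called higher (0.89), and wor (-0.79), Syx1A, moody, flam and srp were called lower. Some germline and testis markers moved as well. The summed level of the 8 found was 15.4 to 16.8 CPM in yw, 336.1 to 388.0 CPM in the L(3)mbt mutant and 169.9 to 175.7 CPM in the Lint-O mutant, and in the mutants most of it was vas, with means of 2.60, 295.8 and 140.9 CPM. In each mutant vas, bam, bgcn and orb were called higher, and aly, can, sa and osk were not called. Their part in the changes of the noncoding RNAs was not tested. Fewer cells of a type and less RNA per cell cannot be told apart in such samples.

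The selected genes were mostly low. Their median mean level was 3.02 CPM, against 45 CPM for the 7851 protein-coding genes at 1 CPM or more. Together they took 0.345% to 0.435% of the counts of a library. Only 62 reached 10 CPM and 3 reached 100 CPM. They were also short. The median exon length was 983 bp against 2165 bp, and 121 (49.6%) had a single exon block, against 9.26% of the protein-coding genes. At the threshold, asRNA:CR46137 (1.002 CPM) and asRNA:CR45124 (1.008 CPM) were just inside, and asRNA:CR43812 (0.990 CPM) and lncRNA:CR44749 (0.990 CPM) were just outside. The 1 CPM mean was reached in all 3 groups by 195 genes, in 2 groups by 42 and in 1 group by 7. In yw 25 genes were under 1 CPM. These had been let in by the mutant libraries, so their higher level there is part of the selection.

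A further limit lay in the counting. Reads in exons that belong to several genes had been left out. All 424 genes whose every exon base is shared with a gene on the same strand had no count, and so had 130 of 131 genes shared only with the opposite strand, against 22.5% of the 12049 genes with no shared exon. Of the 244 genes, 131 shared no exon base with another gene, 130 of them lncRNA: genes. The asRNA: genes shared a median of 51.1% of their exon bases. The strand setting of the counting is not given in the sources used here. The 130 of 131 genes without a count show that bases shared with the opposite strand were left out too. The level of a gene with shared exons rests on its unshared bases. Counting by strand would not have left out bases shared only with the opposite strand, so the counts are read here as taken without regard to strand. Reads from the other strand that fell in the unshared bases would then be part of the count. How many there were was not tested.

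Per kilobase of exon and averaged over all 9 libraries, the highest was lncRNA:CR32368 (669 CPM per kb), a gene of 410 bp on 3L (7915437 to 7915846, plus strand, dm6). Next came lncRNA:CR42862 (319 CPM per kb), lncRNA:CR34335 (150 CPM per kb), lncRNA:CR46489 (94.1 CPM per kb), lncRNA:CR43967 (81.3 CPM per kb) and lncRNA:CR42491 (74.4 CPM per kb, or 150.2 over its unshared exon, since it shares 50.5% of its exon with the ribosomal protein gene RpL22). The order depended on the group. In yw CR42862 (326.7 CPM per kb), CR34335 (147.4), CR46489 (115.4) and lncRNA:CR44138 (86.5) were above CR32368 (80.4), while CR32368 led in the L(3)mbt mutant (1384 CPM per kb) and in the Lint-O mutant (541.7). CR34335 was at 61.8, 48.6 and 49.3 CPM in yw, 60.9, 55.4 and 37.0 CPM in the L(3)mbt mutant and 70.7, 60.7 and 43.6 CPM in the Lint-O mutant, and the 3 groups overlapped. CR43967 had means of 17.2 CPM in yw, 21.1 CPM in the L(3)mbt mutant and 21.5 CPM in the Lint-O mutant, with both mutants above yw but neither called (adjusted p = 0.0863 and 0.0554, DESeq2).

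The question put to each mutant was which of these RNAs differ from yw. All calls are DESeq2 Wald tests fitted on the whole table, with Benjamini-Hochberg adjustment over all genes tested and an adjusted p under 0.01. Both mutants were set against the same 3 yw libraries, so the comparisons are not independent. Of the 244 genes, 31 (12.7%) passed the test as higher in the L(3)mbt mutant and 26 (10.7%) as lower, beside 18.1% and 12.6% of the 10687 genes tested. For Lint-O the counts were 31 (12.7%) and 15 (6.15%), beside 13.4% and 7.52% of 10422 genes. Neither share stood above that of the whole table. The median log2 fold change was -0.12 and -0.03, beside -0.01 and 0.01 for all genes tested. Among genes at 1 CPM or more in yw, 21 were raised for L(3)mbt and 20 for Lint-O, with a median log2 fold change of 1.17 and 1.36, against 0.70 in each over all raised genes of the table at that level. The 26 and 15 lowered genes, all at 1 CPM or more in yw, had medians of -0.74 and -0.52, against -0.33 and -0.30. The standard error was larger, with a median of 0.27 in both comparisons against 0.11 and 0.10. A larger change was thus needed for a call, and the medians of called genes do not show that these RNAs changed more. At least a 2-fold change was seen in 10 of the lowered genes of the L(3)mbt mutant and in 2 of those of the Lint-O mutant. With library totals as size factors the Lint-O calls split into 33 higher and 9 lower (78.6% higher, against 67.4%), and over all genes the share of higher calls went from 59% to 71.2% (L(3)mbt) and from 64% to 77.9% (Lint-O).

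**Figure D1:**
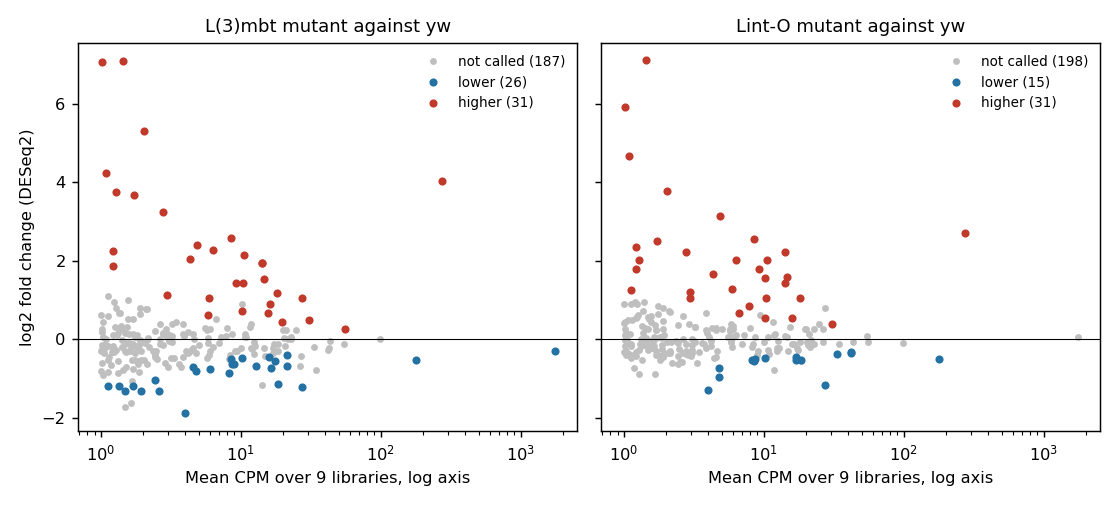
Log2 fold change of the 244 RNA genes against their mean level in CPM over the 9 libraries (log axis), for the L(3)mbt mutant (left) and the Lint-O mutant (right) against yw. Red points were called higher (31 in each mutant), blue points lower (26 and 15) and grey points were not called, and of the 3 genes above 100 CPM only CR32368 was raised, with a log2 fold change of 4.04 and 2.70.

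Both prefixes were represented among the calls. Over all genes tested, 18.1% (L(3)mbt) and 13.4% (Lint-O) were higher, and 12.6% and 7.52% were lower. Of the 172 lncRNA: genes 23 (13.4%) were higher in each mutant, and 21 (12.2%, L(3)mbt) and 14 (8.14%, Lint-O) were lower. Of the 72 asRNA: genes 8 (11.1%) were higher in each mutant, and 5 (6.94%) and 1 (1.39%) were lower. Under 1 CPM in yw were 10 of the raised genes for L(3)mbt and 11 for Lint-O.

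The most abundant raised RNA was lncRNA:CR32368, whose start lies 317 bp from that of Tmem43, a transmembrane protein gene on the other strand. It was at 36.2, 28.0 and 34.7 CPM in yw, 575, 553 and 575 CPM in the L(3)mbt mutant and 241, 229 and 196 CPM in the Lint-O mutant. The 3 groups were thus fully apart, with the L(3)mbt mutant at the top. Its log2 fold change against yw was 4.04 ± 0.09 for L(3)mbt (SE, n = 3 against 3, as for all errors of fold changes given here) and 2.70 ± 0.09 for Lint-O, that is 16.5-fold and 6.48-fold. The DESeq2 adjusted p was at or under 1e-300, the smallest value written, and 1.91e-206. Between the mutants it was 2.54-fold higher in the L(3)mbt mutant (adjusted p = 1.91e-57, DESeq2). Tmem43 itself went from 41.0 CPM in yw to 51.0 and 48.3 CPM, a log2 fold change of 0.26 (adjusted p = 0.00391) and 0.18 (adjusted p = 0.0716).

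Some raised RNAs were next to absent from yw. CR44316, CR43467, CR44283, CR46065, CR45298, CR46119, CR44294, CR44440 and CR46263 were all under a mean of 1 CPM in yw. They reached the 1 CPM mean over the 9 libraries through the mutants, so their higher level there is part of the selection. lncRNA:CR44316 (2R, 12320594 to 12320912, minus strand) had 1 read in the 3 yw libraries together, and stood at 1.96, 2.40 and 2.04 CPM in the L(3)mbt mutant and 2.09, 2.07 and 2.25 CPM in the Lint-O mutant. Every mutant library was far above every yw library. The ratio of normalized counts was 149.8 (95% counting interval 26.5 to 5954) and 151.2 (26.7 to 6016), an interval that covers counting error only. mIF3, a mitochondrial translation initiation factor gene that starts 326 bp away on the other strand, was not called (adjusted p = 0.0104 and 0.227). asRNA:CR43467 (2R, 10139262 to 10142074), opposite the odorant receptor gene Or46a, also had 1 yw read, at 0, 0 and 0.0317 CPM, against 2.65, 1.71 and 1.93 CPM in the L(3)mbt mutant and 0.725, 0.783 and 1.34 CPM in the Lint-O mutant. Its ratio was 148.9 (26.3 to 5917) and 65.6 (11.3 to 2635). Or46a shares 87.2% of the exon of CR43467 and had no count in any library. Reads in the bases they share were left out, so its lack of counts need not mean that it was silent.

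lncRNA:CR44283 (2R, 9161484 to 9161998) moved together with its neighbor. It was at 0.0913, 0.0493 and 0.159 CPM in yw, 5.53, 3.41 and 4.29 CPM in the L(3)mbt mutant and 1.54, 1.43 and 1.66 CPM in the Lint-O mutant. No groups overlapped, and the order again had the L(3)mbt mutant first. The log2 fold change was 5.30 ± 0.58 and 3.78 ± 0.59. CG8008, which starts 48 bp away on the other strand, had a log2 fold change of 5.02 and 3.42 and went from 0.822 CPM in yw to 28.3 and 9.32 CPM. The pair asRNA:CR46065 and yellow-h, a gene of the yellow family on chromosome 4, did likewise. CR46065 was at 0.183, 0 and 0.0317 CPM in yw, 1.0 to 1.66 CPM in the L(3)mbt mutant and 0.91 to 2.26 CPM in the Lint-O mutant, with both mutants above yw and overlapping each other. Its log2 fold change was 4.25 ± 0.76 and 4.68 ± 0.76, beside 4.65 and 5.00 for yellow-h. The exons of CR46065 overlap yellow-h over 37.8% of their length, and whether reads of yellow-h entered its count was not tested. The same holds for reads of CG8008 in the count of CR44283.

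Other raised lncRNA genes stood beside a neighbor that was not called. lncRNA:CR45298, which starts 113 bp from the kinetochore gene Kebab, was at 0.183, 0.0986 and 0.285 CPM in yw, 2.73, 2.91 and 2.79 CPM in the L(3)mbt mutant and 0.555, 0.922 and 1.07 CPM in the Lint-O mutant. Its groups were apart, and the log2 fold change was 3.75 ± 0.49 and 2.02 ± 0.52, the second of which lost its call without yw replicate 2 (adjusted p = 0.0105, DESeq2) and with only yw and Lint-O libraries in the fit (0.0127). lncRNA:CR46119, 862 bp from the start of gammaCOP, a coatomer subunit gene, was at 0.457, 0.345 and 0.0317 CPM in yw, 2.61, 4.29 and 3.22 CPM in the L(3)mbt mutant and 1.36, 1.48 and 1.66 CPM in the Lint-O mutant. That is a log2 fold change of 3.67 ± 0.46 and 2.50 ± 0.47, with yw lowest in every pairing of libraries. lncRNA:CR44294, 81 bp from the start of CG12128, was at 0.685, 0.444 and 0.476 CPM in yw, 5.53, 5.49 and 4.65 CPM in the L(3)mbt mutant and 3.29, 2.07 and 2.30 CPM in the Lint-O mutant. Its log2 fold change was 3.24 ± 0.32 and 2.22 ± 0.33. Kebab, gammaCOP and CG12128 had log2 fold changes from -0.15 to 0.00, and none was called.

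lncRNA:mimi (3R, 23983503 to 23985065), known in flies as a scaffold of neuronal RNA granules, was at 5.11, 4.04 and 3.81 CPM in yw, 19.0, 19.8 and 13.3 CPM in the L(3)mbt mutant and 22.2, 23.4 and 17.2 CPM in the Lint-O mutant. Both mutants were above yw, by 3.86-fold (adjusted p = 8.5e-29, DESeq2) and 4.71-fold (adjusted p = 1.86e-37). lncRNA:CR44440 (chromosome 4, 44774 to 46074), 996 bp from the start of PlexB, the gene of a semaphorin receptor, was at 1.14, 0.986 and 0.698 CPM in yw, 4.93, 4.75 and 5.47 CPM in the L(3)mbt mutant and 10.2, 9.22 and 6.05 CPM in the Lint-O mutant. Here the Lint-O mutant was the highest group, 8.89-fold above yw against 5.27-fold for the L(3)mbt mutant, while PlexB was not called.

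Antisense genes among the raised included asRNA:CR46139 (3R, 4393350 to 4394493), opposite CG34112. It was at 2.33, 1.48 and 1.94 CPM in yw, 13.9, 12.5 and 9.80 CPM in the L(3)mbt mutant and 12.4, 11.6 and 11.1 CPM in the Lint-O mutant. The mutants overlapped each other and were about equally far above yw, at 6.01-fold and 5.87-fold, and CG34112 was called higher as well (log2 fold change 1.22 and 1.25). Whether reads of CG34112 entered the count of CR46139 was not tested. asRNA:CR46263, opposite Amnionless, was at 0.197 to 0.508 CPM in yw, 1.48 to 1.75 CPM in the L(3)mbt mutant and 1.34 to 2.12 CPM in the Lint-O mutant, a log2 fold change of 2.24 ± 0.45 and 2.35 ± 0.45.

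**Figure D2:**
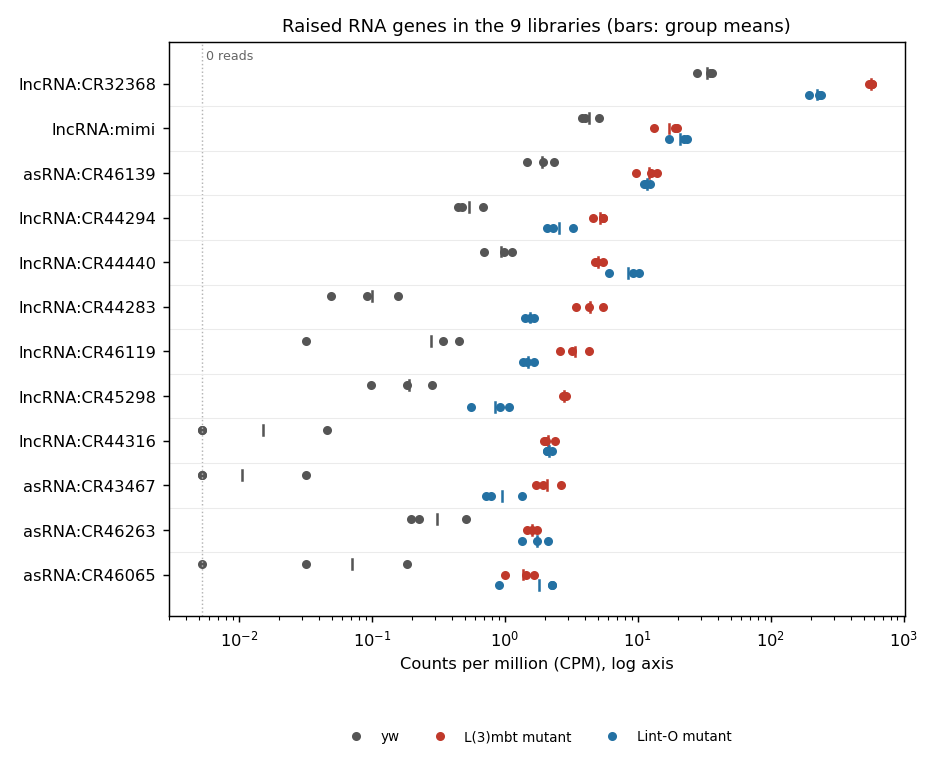
Level in CPM (log axis) of the 12 named raised RNA genes in each of the 9 libraries, with 1 point per library and a bar at the mean of each group of 3 (yw grey, L(3)mbt mutant red, Lint-O mutant blue). With libraries without a read drawn on the dotted line, in all 12 genes every mutant library lies to the right of every yw library. All 31 genes called higher in each mutant had groups apart on normalized counts, and these 12 were picked among them. The separation is therefore not evidence apart from the calls.

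The position of a gene relative to its neighbor was then set beside the calls. In 39 genes, all with the lncRNA: prefix, the start lay within 1 kb of a protein-coding gene's start on the other strand, and in 37 of them the neighbor lay upstream and was transcribed away. Of these 39 genes 14 (35.9%) were raised in the L(3)mbt mutant, where 1 was lower, and 15 (38.5%) were raised in the Lint-O mutant. Of the other 205 genes 17 (8.29%) and 16 (7.80%) were higher. Protein-coding genes placed in the same way, 2231 in number with a mean of 1 CPM or more over the 9 libraries, were higher in 17.7% and 14.3%. Genes under 1 CPM in yw weigh on this count, since they had to be higher in a mutant to be selected. Among genes at 1 CPM or more in yw, 8 of 31 with such a start and 13 of the 188 others were higher for L(3)mbt, against 9 of 31 and 11 of 188 for Lint-O. No test was made of this difference, and the share of protein-coding genes at that yw level was not taken.

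Several of these genes at 1 CPM or more in yw start beside well-known genes. lncRNA:CR32582, beside the clathrin heavy chain gene Chc, went from a mean of 9.91 CPM in yw to 23.1 and 21.04 CPM, and Chc was called lower in the L(3)mbt mutant. lncRNA:CR43242, beside the splicing factor gene Spf45, went from 23.9 to 35.2 and 32.6 CPM, and lncRNA:CR45181, beside the cohesin gene vtd, from 1.84 to 9.33 and 7.81 CPM. All were called higher in both mutants. They fall outside the rule for named genes and were picked after their values were seen, for their neighbors. Of the neighbors of the 14 genes raised in the L(3)mbt mutant, 3 were called higher, 1 lower and 10 not, with a median log2 fold change of -0.10, and of the 15 for Lint-O, 3 were raised and 12 not called, with a median of -0.01.

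**Figure D3:**
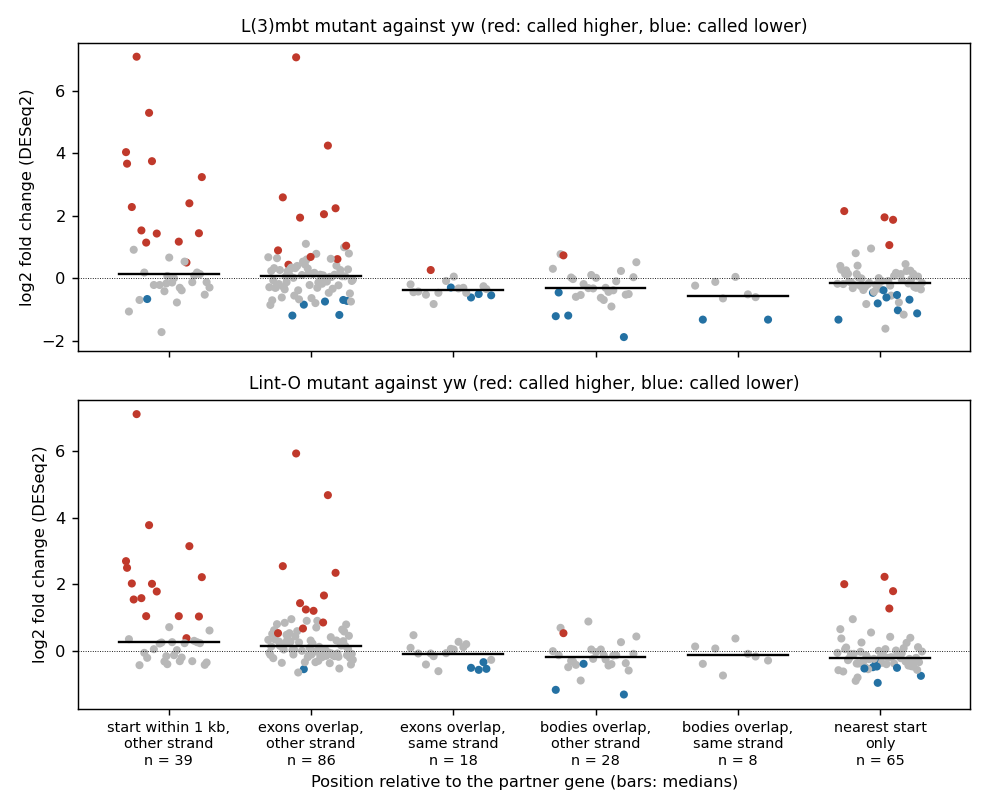
Log2 fold change of each of the 244 RNA genes by its position relative to the partner gene, with 1 point per gene and a bar at the median of each class, for the L(3)mbt mutant (top) and the Lint-O mutant (bottom) against yw. The 39 genes that start within 1 kb of a protein-coding start on the other strand hold 14 and 15 of the 31 raised genes, and the 26 genes that overlap a partner on the same strand (18 by exons, 8 by gene bodies) hold 1 and 0.

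Over all positions, a raised gene with a tested partner had that partner called in the same direction in 8 of 28 cases in each mutant (28.6%). For protein-coding genes with partners found by the same rule the shares were 24.3% and 21.3%. Among lowered genes it was 6 of 21 (28.6%) and 1 of 12 (8.33%), beside 16.2% and 10.9%. By chromosome, 4 of the 11 genes on chromosome 4 were higher in each mutant, namely CR44440, CR46065, CR46488 and CR44441. Of the tested genes of that chromosome 26.0% and 29.6% were higher. CR44440 and CR46065 were under 1 CPM in yw and were let in by the mutant libraries, so their rise is part of the selection. The tested genes were not selected in that way. lncRNA:CR46488 went from a mean of 3.24 CPM in yw to 14.8 and 13.4 CPM, and lncRNA:CR44441 from 3.80 to 10.5 and 13.5 CPM.

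Among the lowered RNAs the deepest fall was in lncRNA:CR45826 (3L, 1927623 to 1928152), inside the homeobox gene Dbx and on its other strand. It was at 7.49, 5.67 and 7.87 CPM in yw, 2.12, 2.77 and 1.11 CPM in the L(3)mbt mutant and 3.07, 2.95 and 2.89 CPM in the Lint-O mutant. Neither mutant overlapped yw. The log2 fold change was -1.89 ± 0.25 (adjusted p = 1.39e-12, DESeq2) and -1.30 ± 0.25 (adjusted p = 2.15e-06). lncRNA:CR44138 (3R, 13376903 to 13377395), within CG9813 on the other strand, was at 47.3, 36.5 and 44.0 CPM in yw, 19.4, 21.2 and 16.5 CPM in the L(3)mbt mutant and 21.9, 20.8 and 16.6 CPM in the Lint-O mutant. The mutants overlapped each other and lay under every yw library, with a log2 fold change of -1.22 ± 0.12 and -1.16 ± 0.12. These were the 2 genes called lower past 2-fold in the Lint-O mutant.

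The next in the L(3)mbt mutant were lower there and not called in the Lint-O mutant. lncRNA:CR45177 was at 3.52, 4.59 and 2.95 CPM in yw and 1.25 to 1.71 CPM in the L(3)mbt mutant, and lncRNA:CR45954, inside rgn, at 2.57 to 2.71 CPM and 0.929 to 1.25 CPM. Both had a log2 fold change of -1.33 (SE 0.27 and 0.29). lncRNA:CR44757, inside CG13506, was at 2.37, 2.32 and 1.21 CPM in yw and 0.561, 1.15 and 0.715 CPM in the L(3)mbt mutant, with a narrow gap between the groups. Its call (log2 fold change -1.33 ± 0.38) was lost on leaving out replicate 1 or 2 of yw, or replicate 1 or 3 of the L(3)mbt mutant (adjusted p = 0.0249, 0.0217, 0.0284 and 0.0155, DESeq2). In the Lint-O mutant the log2 fold changes of CR45177, CR45954 and CR44757 were -0.57, -0.38 and -0.28. The host genes on the same strand were called lower in the L(3)mbt mutant as well, rgn with a log2 fold change of -0.38 and CG13506 with one of -0.18.

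In the Lint-O mutant lncRNA:CR43334, a gene of 15466 bp of exon on 3L, fell by 0.95 on the log2 scale, from 7.76, 6.36 and 6.22 CPM in yw to 4.05, 3.32 and 3.48 CPM, and it was lower in the L(3)mbt mutant as well, at 4.69, 4.24 and 3.18 CPM. lncRNA:CR44608 was at 5.75 to 5.996 CPM in yw and 3.43 to 4.01 CPM in the Lint-O mutant (log2 fold change -0.74 ± 0.19). In the L(3)mbt mutant it was at 4.25 to 5.31 CPM and was not called, while RpL40, whose start is the nearest, was lower there. lncRNA:CR45018, which shares 35.8% of its exon with the inositol trisphosphate kinase gene IP3K2, was at 12.6, 10.5 and 8.598 CPM in yw, 7.42, 8.95 and 6.72 CPM in the L(3)mbt mutant and 8.28, 6.87 and 6.91 CPM in the Lint-O mutant, and IP3K2 was lower in both. On CPM the L(3)mbt mutant and yw overlapped, and the calls (log2 fold change -0.51 and -0.56) were lost without yw replicate 1 (adjusted p = 0.105 and 0.0762, DESeq2) or yw replicate 2 (0.024 and 0.0191). They were also lost without replicate 1 or 3 of the L(3)mbt mutant (0.0443 and 0.0653, that mutant's call only) and without Lint-O mutant replicate 2 or 3 (0.0104 and 0.0102 for the L(3)mbt mutant, 0.0375 and 0.0306 for the Lint-O mutant), and with library totals as size factors (0.0226 and 0.013), and that for L(3)mbt also with only the compared groups in the fit (0.012).

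Abundant RNAs were among the lowered ones. lncRNA:CR42862 (3L, 224106 to 230964), the most abundant of all, was at 1869, 1829 and 1678 CPM in yw, 1511, 1678 and 1346 CPM in the L(3)mbt mutant and 1828, 2079 and 1934 CPM in the Lint-O mutant. The L(3)mbt mutant was the low group, though on CPM its highest library met the lowest of yw at 1678, with a log2 fold change of -0.30 ± 0.07 against yw, and the Lint-O mutant was not called (0.07). lncRNA:CR46489 (2R, 3481473 to 3483439) was at 224, 235 and 202 CPM in yw, 178, 170 and 124 CPM in the L(3)mbt mutant and 181, 152 and 151 CPM in the Lint-O mutant, a log2 fold change of -0.54 and -0.50. Both its calls were lost without yw replicate 1 (adjusted p = 0.01 and 0.0245, DESeq2) or yw replicate 2 (0.0147 and 0.0388), and that in the Lint-O mutant without its replicate 3 (0.0349).

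**Figure D4:**
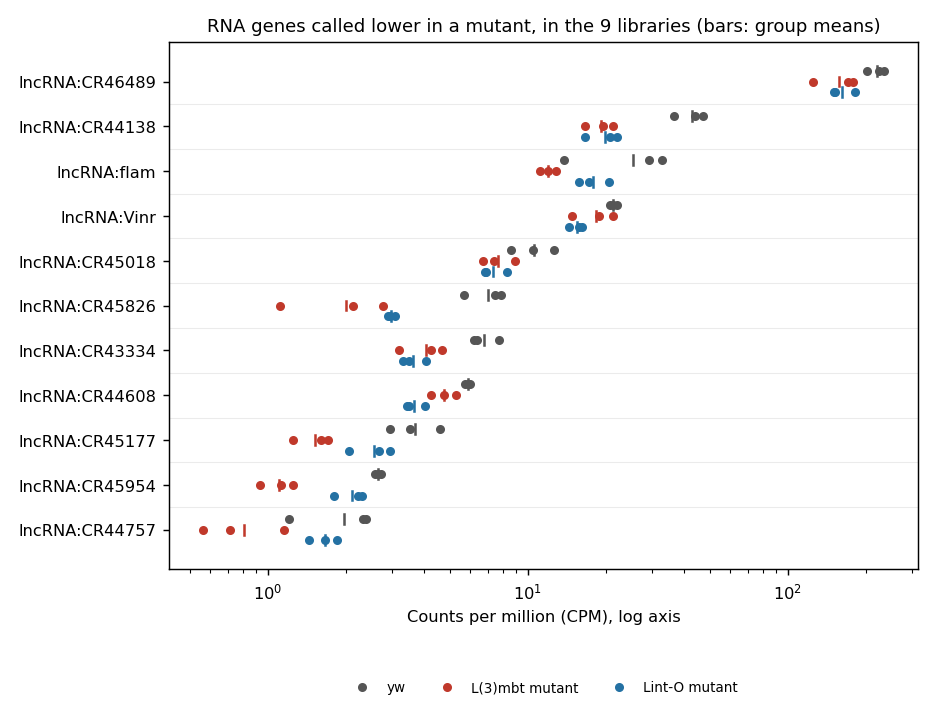
Level in CPM (log axis) of 11 RNA genes called lower in a mutant, in each of the 9 libraries, with 1 point per library and a bar at the mean of each group of 3 (yw grey, L(3)mbt mutant red, Lint-O mutant blue). CR45826 and CR44138 are separated from yw in both mutants, and in flam 1 of the 3 yw points (13.7 CPM) sits beside the mutants.

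Few of the genes carry a name. The piRNA cluster transcript flam (X, 21631891 to 21790731), from which ovarian somatic cells make Piwi-bound piRNAs, was at 32.9, 29.4 and 13.7 CPM in yw, 11.9, 11.2 and 12.8 CPM in the L(3)mbt mutant and 20.4, 17.1 and 15.7 CPM in the Lint-O mutant. The third yw library was close to the mutants. flam was called lower in the L(3)mbt mutant (log2 fold change -1.13 ± 0.32, adjusted p = 0.0016, DESeq2) and not in the Lint-O mutant (-0.56 ± 0.32, adjusted p = 0.194). The call was lost without yw replicate 1 or 2 (DESeq2 adjusted p = 0.0218 each), and also without replicate 1 or 2 of the L(3)mbt mutant (0.0157 and 0.0191). Vinr, named for its induction by virus infection, was at 20.8 to 22.0 CPM in yw and 14.4 to 16.1 CPM in the Lint-O mutant (log2 fold change -0.52 ± 0.12, adjusted p = 0.000167), and at 14.8 to 21.2 CPM in the L(3)mbt mutant, where it was not called.

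The other named genes, bsAS, noe and ASTR, were not called in any comparison. bsAS, the antisense RNA of the blistered gene known from wing development, was at 1.21 to 1.43 CPM in yw, 1.20 to 1.97 CPM in the L(3)mbt mutant and 1.20 to 1.45 CPM in the Lint-O mutant. noe was at 1.49 to 1.598, 0.894 to 1.25 and 0.875 to 1.11 CPM in the same order, under yw in both mutants (log2 fold change -0.65 ± 0.35 and -0.73 ± 0.36). ASTR, opposite the CCR4-NOT subunit gene Rga, was at 0.9201 to 1.10, 1.48 to 1.94 and 0.830 to 1.75 CPM. Known RNAs under the 1 CPM mean included Hsromega, the heat-shock RNA (0.4009 CPM), yar, from between yellow and achaete (0.3801 CPM), and cherub, an RNA of neural stem cells (0.0537 CPM), and bxd, iab4 and iab8 of the bithorax complex had no count.

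The mutants were also set against each other. Of the 244 genes 8 (3.28%) were called higher in the L(3)mbt mutant than in the Lint-O mutant and 12 (4.92%) lower, beside 9.22% and 5.71% of the 9097 genes tested. Of the 8, CR32368 was described above, and CR44283, CR45298, CR44294 and CR46119 were raised in both mutants and more so in the L(3)mbt mutant, by 2.86-fold, 3.33-fold, 2.02-fold and 2.24-fold. The last 2 of these calls were lost without single libraries, that of CR44294 without L(3)mbt mutant replicate 1 or 2 or Lint-O mutant replicate 2 (adjusted p = 0.0158, 0.0108 and 0.0186, DESeq2), and that of CR46119 without any 1 of the 6 mutant libraries (0.0124 to 0.106) and in edgeR (0.0174). lncRNA:CR44632 was called only here, at 1.23, 1.23 and 0.952 CPM in yw, 1.84, 2.49 and 1.82 CPM in the L(3)mbt mutant and 0.384, 0.783 and 0.749 CPM in the Lint-O mutant. Its groups stood on either side of yw, with a log2 fold change of 1.69 ± 0.39 between the mutants (adjusted p = 0.000187, and 0.0101 without Lint-O mutant replicate 1). CR42491 was 1.26-fold higher (48.4 to 55.0 CPM in yw, 59.6 to 68.8 CPM in the L(3)mbt mutant and 50.5 to 51.4 CPM in the Lint-O mutant), and its call was lost without L(3)mbt mutant replicate 3 (adjusted p = 0.0117). The last was asRNA:CR45171, which falls outside the rule for named genes (means of 4.86, 7.71 and 4.79 CPM in yw, L(3)mbt and Lint-O).

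On the lower side stood RNAs with their lowest values in the L(3)mbt mutant and RNAs with their highest values in the Lint-O mutant. lncRNA:CR44779 was at 4.16, 5.23 and 4.60 CPM in yw, 2.77, 3.74 and 2.50 CPM in the L(3)mbt mutant and 5.29, 5.90 and 6.69 CPM in the Lint-O mutant. The L(3)mbt mutant was the lowest group, at a fold of 0.499 against the Lint-O mutant. asRNA:CR45281, opposite the alkaline phosphatase gene Alp6, was at 1.87 to 2.13 CPM in yw, 0.786 to 1.15 CPM in the L(3)mbt mutant and 1.49 to 2.72 CPM in the Lint-O mutant. The L(3)mbt mutant lay under both other groups, by a log2 fold change of -1.23 ± 0.34 against the Lint-O mutant. lncRNA:CR43459, whose nearest start is that of the fragile X gene Fmr1, was at 2.37 to 3.61, 1.18 to 1.66 and 2.26 to 3.48 CPM in the same order (-0.95 ± 0.29). In the opposite pattern, lncRNA:CR46478 was at 2.83, 2.22 and 0.888 CPM in yw, 1.68, 2.08 and 2.90 CPM in the L(3)mbt mutant and 5.03, 5.34 and 3.59 CPM in the Lint-O mutant, above both other groups.

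Most of these calls between the mutants depended on single libraries. The call of CR45281 was lost without L(3)mbt mutant replicate 1 or 3 or Lint-O mutant replicate 2 or 3 (adjusted p from 0.0188 to 0.0593, DESeq2). That of CR43459 was lost without yw replicate 1 (0.0105), without any 1 of the L(3)mbt mutant libraries (0.0168 to 0.0715) or without Lint-O mutant replicate 2 or 3 (0.0366 and 0.0857), and with no independent filtering (0.011). That of CR46478 was lost without replicate 1 or 2 of either mutant (DESeq2 adjusted p from 0.0349 to 0.0737), in edgeR (0.0204) and with no independent filtering (0.0101). CR44440 was lower in the L(3)mbt mutant by a log2 fold change of -0.75 ± 0.21, and the call was lost without replicate 1 or 2 of either mutant (0.0272 to 0.0782). CR42862 (-0.37 ± 0.07, adjusted p = 5.21e-06) and CR44779 (adjusted p = 2.48e-05) kept the call without any single library.

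**Figure D5:**
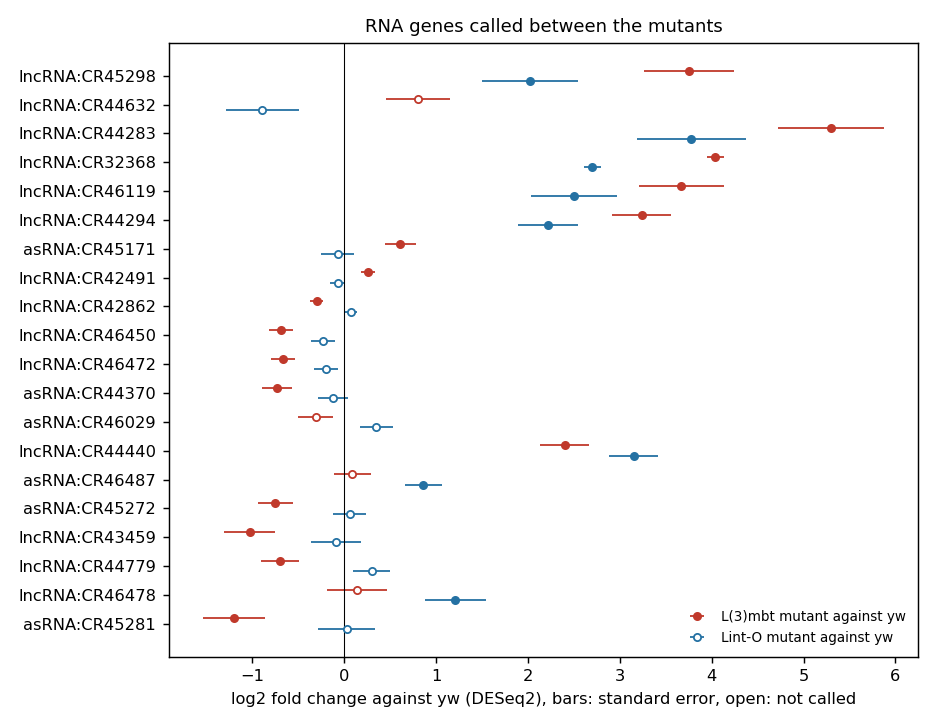
Log2 fold change against yw, with its standard error, of the 20 RNA genes called between the mutants, in the L(3)mbt mutant (red) and the Lint-O mutant (blue). Filled points were called against yw and open points were not, and the 8 genes at the top were higher in the L(3)mbt mutant than in the Lint-O mutant and the 12 at the bottom lower.

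Genes that act on nuclear and noncoding RNA, among them the exosome, its cofactors and Integrator, were read off the same fit. Of 27 listed 25 were found, and DESeq2 called 9 of them lower for L(3)mbt and 7 for Lint-O and left the rest uncalled. Over all genes tested, 12.6% and 7.52% were called lower. In every library 24 of the 25 were above 10 CPM. Smaller changes can be called at that level than in low genes, which the genes tested include. The median log2 fold change of the list was -0.20 and -0.11, beside -0.01 and 0.01 over all genes tested. None of the 25 moved by 2-fold. The lowest in the L(3)mbt mutant, picked after their values were seen, were the exosome subunits Ski6 (log2 fold change -0.48) and Rrp40 (-0.46) and the Integrator subunits IntS1 and IntS9 (-0.42 each). With library totals as size factors L(3)mbt had 2 raised and 5 lowered genes of the list and Lint-O had 4 lowered, and the medians were -0.14 and -0.05.

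Of the other noncoding classes, 7 snoRNA host genes were listed and the 5 with counts had adjusted p-values from 0.0543 to 0.976 (DESeq2) against yw. Uhg1 varied most among them, at 25.0 to 85.6 CPM over the 9 libraries. Of 257 snoRNA: genes, whose RNAs lack a poly-A tail, 87 were tested for L(3)mbt, and 1 was called, lower. Of 31 snRNA: genes 7 were tested for L(3)mbt and 6 for Lint-O, and 1 was higher in each mutant. Over all genes tested, 18.1% and 13.4% were higher, and 12.6% were lower for L(3)mbt. The summed level of the 31 snRNA: genes was 1.58 to 2.06 CPM in yw, 4.29 to 5.29 CPM in the L(3)mbt mutant and 2.78 to 3.97 CPM in the Lint-O mutant.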

How the data were processed

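The deposited table held counts of reads per gene for 17611 FlyBase genes in 9 libraries. Per the paper's methods and the submitters' processing notes, the authors made poly-A-selected, strand-specific libraries, removed ribosomal RNA reads, aligned to dm6 with HISAT2 and counted with featureCounts, whose version, annotation and strand setting are not given in the sources used here. Counts were tested as deposited with DESeq2 1.42.0 in R 4.3.3 (all 9 libraries in 1 fit, median-of-ratios size factors, two-sided Wald tests, Benjamini-Hochberg adjustment over all genes tested, adjusted p under 0.01), and with the quasi-likelihood test of edgeR 4.0.16 as an alternative. Positions and shared exons came from Ensembl annotation of BDGP6 (dm6 coordinates), which held 17559 of the identifiers and lacked 52. CPM (counts relative to the library total) was used for levels only. The fit was tested on simulated counts.

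The genes and lists were chosen with earlier results of these data known. Named were the 10 most raised and 5 most lowered called genes per mutant, the 4 at each end between mutants, the 6 highest in CPM per kb, every gene with a name, the genes at the threshold and the partner of each (the gene it overlaps, or with the nearest start). Alternatives covered size factors, filters, thresholds, groups in the fit, the replicate block and each library left out. One CPM equaled 18.7 to 31.5 counts, and intervals of count ratios cover counting error only.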

Additional observations from a re-analysis of the deposited data

Results flagged for a closer look

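Rows of the same symbol classes that stayed under the 1 CPM mean were not part of the comparisons, yet some passed the test. In the L(3)mbt mutant 15 of the 471 tested were called higher than in yw and 2 lower, and in the Lint-O mutant 8 of 415 were called higher. Larger shares of all genes tested were called higher, 18.1% for L(3)mbt and 13.4% for Lint-O, and 12.6% were called lower for L(3)mbt. The most raised in the L(3)mbt mutant was lncRNA:CR44923, at a mean of 0.0152 CPM in yw and 0.464 CPM in the mutant, and asRNA:CR45912 went from 0.122 to 1.67 CPM. In the Lint-O mutant lncRNA:CR44845 went from 0.147 to 0.805 CPM and asRNA:CR44961 from 0.212 to 1.15 CPM.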

How the results depend on the processing

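No named gene with a call, in the main fit or in the alternative, changed direction under any alternative run. Genes without a call were not checked for direction. Restricting the genes to those with no shared exon (chosen after seeing the data) gave 17 higher and 15 lower for L(3)mbt, 18 higher and 8 lower for Lint-O, and 4 lower between mutants. A 2-fold minimum left 10 lower for L(3)mbt, 2 for Lint-O and 3 between mutants. Counting only genes at 1 CPM or more in yw gave 20 higher for Lint-O and 4 higher between mutants, and a 2 CPM minimum gave 5 higher between mutants. Library totals gave 9 lower for Lint-O, and a fit of the compared groups alone gave 20 lower between mutants. edgeR called 34 and 31 (L(3)mbt), 32 and 15 (Lint-O) and 7 and 10 (between mutants) higher and lower.

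With each library left out in turn, L(3)mbt calls ranged from 28 to 32 higher and 17 to 35 lower (17 without yw replicate 2), Lint-O calls from 25 to 32 higher and 6 to 17 lower (7 and 6 without yw replicate 1 and 2, 8 and 6 without Lint-O mutant replicate 2 and 3), and calls between mutants from 5 to 9 higher (5 without L(3)mbt mutant replicate 2) and 4 to 21 lower (21 without yw replicate 3, 5 without L(3)mbt mutant replicate 1 or 2, 5 and 4 without Lint-O mutant replicate 1 and 2). Deviations of same-numbered libraries correlated at -0.17 to 0.12, which gives no sign of pairing by number but cannot exclude it. A replicate block gave 32 higher and 23 lower (L(3)mbt), 32 and 13 (Lint-O) and 7 and 7 (between mutants). In that fit CR46119, CR44440, CR45281, CR43459 and CR46478 were not called between the mutants (DESeq2 adjusted p = 0.0388, 0.0143, 0.01, 0.0238 and 0.0238), nor was CR45018 for L(3)mbt (0.0111). The causes of these shifts were not tested beyond the smaller number of genes or samples.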

Other observations

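Of the 52 identifiers absent from the annotation used, 30 had a count and 16 reached a mean of 1 CPM. Against yw, L(3)mbt gave 4 raised and 6 lowered among them, and Lint-O gave 1 raised and 4 lowered. They carry no position here. The dosage compensation RNA roX1, left out of the genes described, was at a mean of 16.8 CPM in yw, 25.0 CPM in the L(3)mbt mutant and 30.8 CPM in the Lint-O mutant, and was called higher in both (DESeq2 adjusted p = 0.00215 and 4.57e-07). roX2, left out as well, was at means of 0.107, 0.995 and 0.461 CPM in the same order. It was called higher in the L(3)mbt mutant (DESeq2 adjusted p = 3.25e-05) and not in the Lint-O mutant (0.0173).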
